A study of Rattus norvegicus with 10 samples.

Results

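The genes described here are those of the synaptic vesicle and its release machinery in the rat hippocampus. They were chosen by symbol: every synaptotagmin (Syt), syntaxin (Stx), syntaxin-binding protein (Stxbp), complexin (Cplx), Rims and Vamp gene whose symbol is the family name and a number, the Rab3 genes, and the named genes Syn1, Syn2, Syn3, Syp, Sv2a, Sv2b, Sv2c, Snap25, Unc13a, Unc13b, Unc13c, Bsn, Pclo, Slc17a6 and Slc17a7. Of the 71 symbols in the RefSeq gene table that fit, 68 had a row in the deposited count matrix. A summed count of at least 46 over the 10 rats was required, and 65 genes met it, of 22447 tested rows. Stx16, Stxbp4 and Vamp9 were matched to no row. Stx11, Stx19 and Syt15 lay just below the limit with 33, 40 and 43 summed counts, and Syt8 lay just above it with 50. Where a gene had several transcript rows, the row with the highest mean count stood for it.

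Polyadenylated RNA was sequenced from tissue of male Sprague-Dawley rats, an outbred strain, taken from the left hippocampus (dorsal, per the tissue label) and holding the CA3 field and the dentate gyrus. All 10 rats carried an electrode in the left lateral amygdala. In 5 of them (rats 6 to 10) it was used to evoke status epilepticus, a prolonged seizure, with 400 µA pulses at 60 Hz for 30 min, which was later stopped with diazepam, and the 5 sham rats of matched age (rats 1 to 5) received no current. Tissue was collected 3 months later, when, per the study's methods, every stimulated animal had spontaneous seizures. A numeric age was not given in the sources used here, and each rat is 1 sample. The study's methods count 4 stimulated animals for this assay and the labels 5, without saying which was left out, so all 5 were used and each was also omitted in turn. The comparison asks which transcripts differed between chronically epileptic and sham hippocampus.

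Neurotransmitter is released when a vesicle fuses with the plasma membrane of the axon terminal. The vesicle protein Vamp2 zips together with Snap25 and a syntaxin on the target membrane to form the SNARE complex. Complexins clamp and then assist the assembled complex, and synaptotagmins with working C2 domains sense calcium and trigger fusion. Rims, Unc13, Bsn and Pclo proteins build the active zone, the site where vesicles dock and are primed, and Rab3 proteins on the vesicle bind Rims. Synapsins tether the vesicle reserve, Sv2a is the binding site of the antiseizure drug levetiracetam, and Slc17a7 (VGLUT1) loads glutamate into vesicles in hippocampal excitatory terminals, including the mossy fibres that granule cells send from the dentate gyrus to CA3.

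Library depth was 13552309 to 24086059 aligned counts. Values are in CPM, the counts scaled to a common library total after trimmed mean normalization. Levels are compared between rats and not between genes, since transcript lengths of the authors' annotation were not used here. The tissue showed the markers of its labelled fields: the 4 tested granule cell and the 4 tested CA3 pyramidal cell markers were above 0 in every rat. Stimulated rats 7, 9 and 10 lay above the other 7 rats in 9 of 10 immediate early genes (not in Npas4). Their summed level, to which Arc contributed 1118 CPM in rat 9, was 147 to 189 CPM in the sham rats, 197 and 138 CPM in stimulated rats 6 and 8, and 751, 1745 and 710 CPM in stimulated rats 7, 9 and 10. Summed astrocyte markers were 4588 to 5229 CPM in sham and 4625 to 9540 CPM in stimulated rats. Gfap contributed 1327 to 1927 CPM in sham rats, 6469 CPM in rat 7 and 5396 CPM in rat 10. Microglial markers were 328 to 423 CPM in sham and 360 to 572 CPM in stimulated rats. At an unadjusted p under 0.05, 4 of 8 astrocyte markers (Gfap, Aqp4, Slc1a2 and Slc1a3) were higher and 0 lower, against 6.7% and 3.16% of all tested rows. Among the rest, the log2 fold change was -0.27 for Aldh1l1, -0.11 for Aldoc and 0.074 for Gja1. Endothelial markers were 165 to 184 CPM in sham and 155 to 319 CPM in stimulated rats, lowest in rat 7 and highest in rat 10. At that threshold 4 of 7 (Cdh5, Flt1, Kdr and Pecam1) were higher and 0 lower, against 6.7% and 3.16% of all tested rows. Cldn5, not among the 4, was 60.0 CPM in rat 7 and 150 CPM in rat 10, against 66.1 to 79.1 CPM in sham rats. As a share of unaligned reads plus summed row counts, unaligned reads were 41.4, 42.9 and 45.1% in stimulated rats 8, 9 and 10. They were 32.0 to 37.1% in the other 7 rats, and their part in the values was not tested. Markers of neurons at large were alike in range, 3186 to 3571 CPM in sham and 3236 to 3781 CPM in stimulated rats. In bulk tissue, fewer cells of a type and less RNA per cell cannot be told apart, and the part of cell composition in the values below was not tested.

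The promoter windows below are the 250 bases before the annotated start of the members with an unadjusted p under 0.05 that have a window in the RefSeq table of the GRCr8 assembly: Cplx2 and Syt3, lower in stimulated rats, and Cplx3, Cplx4 and Stx3, higher. Cplx4 met the count limit through stimulated rats alone, so its call is no support. Capitals mark the only match to the motifs searched below, the E-box CACGTG in Cplx3, 191 bases before the start. Each sequence is read 5′ to 3′ on the strand of its gene.
Cplx2, chr17:10236754-10237003, minus strand: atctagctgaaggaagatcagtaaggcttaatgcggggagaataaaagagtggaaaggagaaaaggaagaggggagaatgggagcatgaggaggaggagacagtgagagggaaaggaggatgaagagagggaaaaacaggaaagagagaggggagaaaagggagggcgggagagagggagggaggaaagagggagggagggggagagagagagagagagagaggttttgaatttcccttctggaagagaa
Syt3, chr1:104017874-104018123, plus strand: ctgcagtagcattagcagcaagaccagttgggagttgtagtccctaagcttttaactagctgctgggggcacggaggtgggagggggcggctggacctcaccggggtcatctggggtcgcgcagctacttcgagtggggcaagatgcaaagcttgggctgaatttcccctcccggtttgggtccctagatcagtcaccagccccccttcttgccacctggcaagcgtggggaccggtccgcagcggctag
Cplx3, chr8:66906201-66906450, minus strand: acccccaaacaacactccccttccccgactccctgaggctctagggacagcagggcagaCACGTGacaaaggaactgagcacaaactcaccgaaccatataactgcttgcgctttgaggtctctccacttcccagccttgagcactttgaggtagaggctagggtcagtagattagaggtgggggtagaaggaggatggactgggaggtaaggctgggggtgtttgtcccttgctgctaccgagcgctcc
Cplx4, chr18:61767755-61768004, minus strand: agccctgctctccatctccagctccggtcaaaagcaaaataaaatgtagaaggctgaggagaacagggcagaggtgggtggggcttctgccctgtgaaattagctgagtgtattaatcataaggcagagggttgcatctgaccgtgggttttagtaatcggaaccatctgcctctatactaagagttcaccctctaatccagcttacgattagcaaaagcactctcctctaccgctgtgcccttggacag
Stx3, chr1:218110467-218110716, minus strand: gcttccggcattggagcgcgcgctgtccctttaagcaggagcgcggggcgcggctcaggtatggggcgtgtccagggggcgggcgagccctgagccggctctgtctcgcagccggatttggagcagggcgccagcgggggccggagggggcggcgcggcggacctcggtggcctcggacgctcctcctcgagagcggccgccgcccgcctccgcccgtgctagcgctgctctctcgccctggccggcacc

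The table held 65 windows for 52 of the 65 genes. Syt14, Syt16 and Unc13b had more than a single window, and some of those of Syt14 overlap, so medians and shares here are of windows and not of genes. Syt13, Syt17, Snap25 and 10 further members had none. The member windows were rich in CpG, with a median of 15 CpG dinucleotides and 60.8% G and C, against 5 and 51.2% over all 33469 windows. The windows above were on both sides of those medians: Cplx2 had 2 CpG and 50.8% G and C in a purine-rich run, Cplx3 6 and 56.4%, Cplx4 5 and 49.2%, Syt3 11 and 61.6%, and Stx3 34 and 76.4%. Searched on both strands, the AP-1 motif TGANTCA, bound by Fos and Jun, was in 0 member windows and in 6.34% of all windows. The cyclic AMP response element TGACGTCA was in 2 member windows (3.08%, Syn1 and Vamp1) and in 1.59% of all, the Egr motif GCGTGGGCG in 1 (1.54%, Vamp2) and in 0.478% of all, and CACGTG in 4 (6.15%) and in 5.59% of all. TATAAA was in 6 member windows (9.23%), which belong to Stxbp3, Syt14 and Syt16 only, and in 12.9% of all. These are matches of letters in a fixed window of another assembly than the counts, and no binding or promoter state was measured here.

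No member had an adjusted p under 0.05 by edgeR's quasi-likelihood test with Benjamini-Hochberg adjustment over all tested rows, where the share called was 0% too, and the lowest adjusted p of a member was 0.376. At an unadjusted p under 0.05, 7 of 65 members (10.8%) were called, near the 9.86% of all tested rows. Without Cplx4 the share was 9.38% of 64 members. Cplx2, Syt3, Syt13 and Syt17 were lower, 6.15% of the members against 3.16% of all rows. Cplx3, Stx3 and Cplx4 were higher, 4.62% against 6.7% of all rows. Cplx4 met the count limit through the stimulated rats in which it was high, so its call is no support, and without it the higher members were 2 of 64 (3.13%). Only Syt3 had groups that did not overlap, with all stimulated rats below all sham rats, as had 0.597% of all tested rows, while 0 members and 0.695% of all rows had all stimulated rats above. The median log2 fold change was -0.039 over the members and 0.012 over all tested rows, with 30 members above 0 and 35 below.

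The 4 lower members had sham means of 59.2 to 344 CPM. A split at a sham mean of 50 CPM was made after the values were seen. It lies between the lower and the higher members, so the directions within each part follow from it and are no support. Of the 27 members with a sham mean of at least 50 CPM, 4 were lower and 0 higher at an unadjusted p under 0.05 by edgeR's quasi-likelihood test. That is 14.8% against 4.18% of the 4115 tested rows at that level (5.27% of those rows were higher). For 24 of these 27 members the 95% interval of the log2 fold change lay within 0.5 of 0, as for 3484 of the 4115 tested rows at that level. Over all levels it did so for 39 of 65 members and 10084 of 22447 tested rows. Larger differences thus fell outside the interval for most of the abundant machinery, as for most abundant rows of any kind. Of the 37 members under 50 CPM other than Cplx4, 2 were higher and 0 lower, 5.41% against 7.03% higher among all tested rows at that level. The SD between rats on the log2 scale was larger in the stimulated group for 45 members (69.2%), close to the 69.5% over all tested rows, and for 14 of the 16 synaptotagmins.

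**Figure D1:**
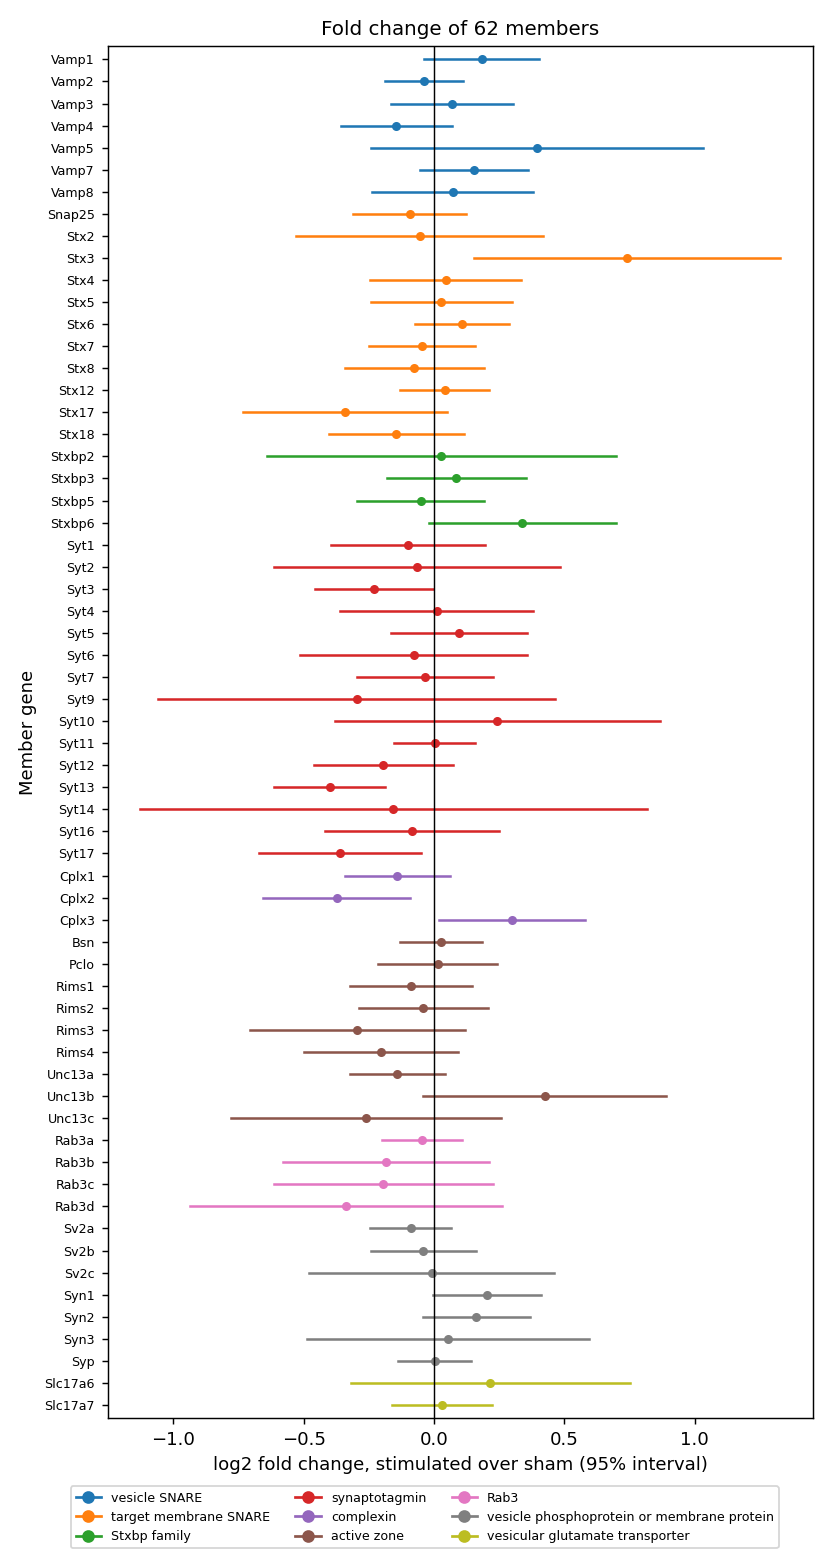
Log2 fold change of stimulated over sham rats for 62 of the 65 members, grouped and coloured by role (points, edgeR estimates from 5 rats a group; lines, 95% intervals; the vertical line marks 0). Syt13, Cplx2 and Syt17 have intervals wholly below 0 and Stx3 and Cplx3 wholly above it, while Syp, Vamp2 and Bsn have short intervals around 0; Cplx4 and Syt8, with wide intervals, and 1 further member are left out.

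Synaptotagmins, the calcium sensor family, carry paired C2 domains, which in some members bind calcium. Of the 16 tested, 3 were lower and 0 higher at an unadjusted p under 0.05, 18.8% lower against 3.16% of all tested rows, with a median log2 fold change of -0.081 (0.012 over all rows) and 11 of 16 below 0. Syt13 (NM_030839), an atypical synaptotagmin that does not act as a calcium sensor, had the lowest p of all members. Its level was 51.1, 65.0, 57.8, 61.1 and 61.1 CPM in sham rats 1 to 5 and 51.4, 43.3, 47.8, 40.8 and 41.0 CPM in stimulated rats 6 to 10. Sham rat 1 and stimulated rat 6 were almost level, and 4 of 5 stimulated rats lay below every sham rat. The group values were 59.2 ± 5.23 CPM for sham and 44.9 ± 4.64 CPM for stimulated rats (SD, 5 rats each). Stimulated over sham, the log2 fold change was -0.40 (SE 0.0987, 95% interval -0.61 to -0.19), with an unadjusted p = 0.0012 and an adjusted p = 0.376 by edgeR's quasi-likelihood test. Leaving out each rat in turn gave log2 fold changes from -0.47 to -0.37. The study's own edgeR list for this model, from 4 stimulated animals per its methods, names Syt13 as downregulated with an adjusted p under 0.05. The fit here used 5 stimulated rats and the quasi-likelihood test.

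Syt17 (NM_138849), a synaptotagmin-like protein without a transmembrane segment, showed a split within the stimulated group. Its level was 107, 109, 109, 117 and 113 CPM in sham rats 1 to 5 and 106, 61.7, 113, 80.1 and 71.4 CPM in stimulated rats 6 to 10. Stimulated rat 8 lay within the sham range, rat 6 just under its lowest value, and rats 7, 9 and 10 far below it. On the log2 scale the stimulated group differed from sham by -0.36 (SE 0.14, 95% interval -0.67 to -0.049), with an unadjusted p = 0.026 and an adjusted p = 0.446 by edgeR's quasi-likelihood test. Without stimulated rat 7, 9 or 10 the log2 fold change was -0.26, -0.33 or -0.30 and the unadjusted p was 0.054, 0.054 or 0.066 in the same edgeR test, and without sham rat 4 it was 0.055.

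Syt3 (NM_019122), a calcium-binding synaptotagmin found at the plasma membrane, was the only member whose groups separated. Its level was 86.7, 90.1, 81.0, 81.2 and 82.8 CPM in sham rats 1 to 5 and 80.1, 54.2, 79.8, 70.6 and 75.2 CPM in stimulated rats 6 to 10. The lowest sham rat and the highest stimulated rat were less than 1 CPM apart, and stimulated rat 7 lay farthest down. The fitted log2 difference, stimulated minus sham, was -0.23 (SE 0.11, 95% interval -0.46 to -0.0020), with an unadjusted p = 0.048 and an adjusted p = 0.501 by edgeR's quasi-likelihood test. Without stimulated rat 7 the log2 fold change was -0.14, the smallest of the omissions, with an unadjusted p = 0.094 by edgeR. Scaled by library size alone, the groups overlapped.

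Syt1 and Syt2, the fast calcium sensors of synchronous release, did not pass. Syt1 was at 358 to 451 CPM in the sham group and 253 to 487 CPM after stimulation, with a log2 fold change of -0.10 (95% interval -0.40 to 0.20), and its lowest value was that of stimulated rat 10. Syt2, the sensor of many inhibitory and hindbrain synapses, was sparse at 3.37 to 7.74 CPM in the sham group and 2.75 to 6.66 CPM after stimulation, with -0.064 (95% interval -0.61 to 0.49). Of the other synaptotagmins, Syt11 had the smallest difference, at 409.8 to 448 CPM in the sham group and 385 to 464 CPM after stimulation and a log2 fold change of 0.0029 (95% interval -0.15 to 0.16). Syt4, a synaptotagmin known to respond to activity, had group means of 173 and 175 CPM, yet the stimulated rats ran from 116 CPM in rat 10 to 257 CPM in rat 9 and the sham rats from 156 to 198 CPM. The remaining 9 (Syt5, Syt6, Syt7, Syt8, Syt9, Syt10, Syt12, Syt14 and Syt16) had log2 fold changes between -0.30 and 0.56, and the extremes belong to Syt9 and Syt8, both under 2 CPM in every rat.

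**Figure D2:**
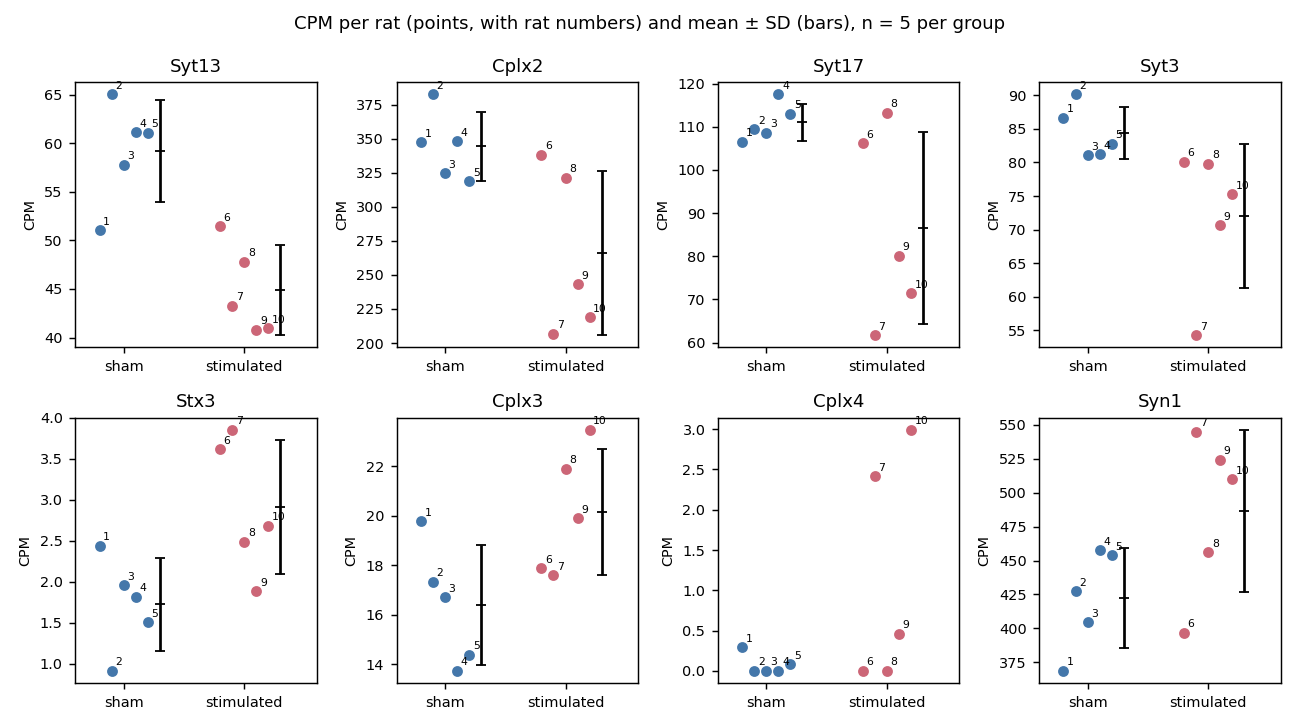
Level of 8 members in each rat (vertical axes, CPM, which do not start at 0; numbers beside the points are rat numbers; bars at the right of each group are mean ± SD, n = 5, not drawn for Cplx4). In Cplx2 and Syt17, stimulated rats 7, 9 and 10 lie far below the sham rats while rats 6 and 8 lie within or just under their range, and in Syt3 all 5 stimulated rats lie below the sham rats.

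Of the 3 complexins other than Cplx4, Cplx2 was lower and Cplx3 higher at an unadjusted p under 0.05, and Cplx1 did not pass. Cplx2 (NM_053878), the main complexin of forebrain excitatory terminals, was 347, 383, 325, 348 and 319 CPM in sham rats 1 to 5 and 338, 207, 322, 243 and 219 CPM in stimulated rats 6 to 10. Stimulated rats 7, 9 and 10 lay below all sham rats, and rats 6 and 8 within their range. The group values were 344 ± 25.1 CPM for sham and 266 ± 60.3 CPM for stimulated rats (SD, 5 rats each). The log2 fold change of stimulated over sham was -0.37 (SE 0.13, 95% interval -0.66 to -0.092), with an unadjusted p = 0.013 and an adjusted p = 0.414 by edgeR's quasi-likelihood test. Leaving out each rat in turn gave log2 fold changes from -0.49 to -0.30. Summed granule cell markers were 394 to 548 CPM in sham and 417, 223, 411, 616 and 266 CPM in stimulated rats 6 to 10. The sum was low in rats 7 and 10 but highest in rat 9. The 4 markers did not share the low values alike. Pdyn lay below every sham rat in rats 7 and 10 (64.1 and 63.5 CPM, sham 139 to 262). C1ql2 did so in rats 6, 7 and 8 (127, 44.8 and 128 CPM, sham 140 to 165), and not in rat 10. Calb1 did so only in rat 10 (38.2 CPM, sham 66.8 to 102). Prox1 lay within its sham range of 22.3 to 35.9 CPM in rats 7 and 10. In rat 10 the summed CA3 pyramidal cell markers were 386 CPM (sham 474 to 519) and the CA1 markers 110.1 CPM (sham 186 to 306), both below every sham rat. In rats 6 to 9 they were 464 to 537 CPM and 206 to 366 CPM. The part of these cell types in the Cplx2 values was not tested.

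Cplx1 (NM_022864), the complexin of many inhibitory neurons, was at 465 to 574 CPM in the sham group and 395 to 533 CPM after stimulation. Its lowest values were those of stimulated rats 10 and 7, and the log2 fold change was -0.14 (95% interval -0.34 to 0.061). Cplx3 (NM_001109295), a complexin with a lipid anchor known from retinal ribbon synapses, was low and slightly higher after stimulation. Its level was 19.8, 17.3, 16.7, 13.7 and 14.4 CPM in sham rats 1 to 5 and 17.9, 17.6, 21.9, 19.9 and 23.5 CPM in stimulated rats 6 to 10. The groups overlapped, since sham rat 1 lay above 2 stimulated rats. Stimulated over sham, the log2 fold change was 0.30 (SE 0.13, 95% interval 0.021 to 0.58), with an unadjusted p = 0.037 and an adjusted p = 0.471 by edgeR's quasi-likelihood test. The unadjusted p was 0.05 or more in 5 of the 19 alternative fits.

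Cplx4 (NM_001191835), the closest relative of Cplx3, was at or near 0 in most rats. Its raw counts were 5, 0, 0, 0 and 2 in sham rats 1 to 5 and 0, 52, 0, 9 and 58 in stimulated rats 6 to 10. The 7 sham and 119 stimulated counts show that it met the count limit through stimulated rats 7, 9 and 10 alone. Among the rats at 0, the limit that a count of 0 allows (3 counts) was 0.124 to 0.229 CPM, which covers counting error only. Cplx4 is counted among the members with an unadjusted p under 0.05, but that call is no support. No fold change or p-value of Cplx4 is given, since its zeros and its way past the count limit leave the size undetermined. A filter of at least 10 counts in 4 samples removed the gene.

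Among the SNARE proteins of the vesicle, 0 of the 7 Vamp genes passed an unadjusted p of 0.05. Vamp2 (NM_012663), the vesicle SNARE of most forebrain synapses, was at 1109 to 1340.1 CPM in the sham group and 1157 to 1268 CPM after stimulation, and its log2 fold change was -0.039 (95% interval -0.19 to 0.11). Vamp1, its close relative in hindbrain, spinal cord and some hippocampal neurons, was at 318 to 395 CPM in the sham group and 350.4 to 491 CPM after stimulation, highest in stimulated rat 10, with 0.18 (95% interval -0.036 to 0.40) and an unadjusted p = 0.095 (adjusted p = 0.567) by edgeR. The other 5 (Vamp3, Vamp4, Vamp5, Vamp7 and Vamp8), which serve endosomal and other membrane traffic, had log2 fold changes from -0.14 to 0.40.

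Of the 11 target membrane SNAREs, 1 was higher (9.09%, against 6.7% of all tested rows) and 0 lower. Snap25 (NM_030991) was at 561 to 679 CPM in the sham group and 451 to 663 CPM after stimulation, with 3 stimulated rats below all sham rats and a log2 fold change of -0.094 (95% interval -0.31 to 0.12). Stx1a, a synaptic syntaxin that partners it, falls outside the symbol rule and was at 104 to 126 CPM in the sham group and 108 to 159.6 CPM after stimulation, with a log2 fold change of 0.073 (95% interval -0.17 to 0.32). Stx3 (NM_031124), a syntaxin of ribbon synapses, polarized epithelia and dendrites, was the one that differed. Its level was 2.44, 0.916, 1.96, 1.82 and 1.51 CPM in sham rats 1 to 5 and 3.62, 3.85, 2.49, 1.89 and 2.68 CPM in stimulated rats 6 to 10. Values of 4 stimulated rats lay above all sham rats, and rat 9 lay among them. On the log2 scale the stimulated group differed from sham by 0.74 (SE 0.27, 95% interval 0.15 to 1.33), with an unadjusted p = 0.017 and an adjusted p = 0.420 by edgeR's quasi-likelihood test. These values rest on low counts. In the GRCr8 annotation Stx3 shares its span with 2 coding genes, Cblif and Mrpl16, and whether the authors' counting used strand was not stated. The other 9 (Stx2, Stx4, Stx5, Stx6, Stx7, Stx8, Stx12, Stx17 and Stx18) had log2 fold changes from -0.34 to 0.11.

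None of the 5 tested syntaxin-binding proteins had an unadjusted p under 0.05. Stxbp2, Stxbp3, Stxbp5 and Stxbp6 had log2 fold changes from -0.050 to 0.34, the last of them Stxbp6 (amisyn), at 17.8 to 29.7 CPM in the sham group and 20.6 to 36.0 CPM after stimulation.

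None of the 9 active zone members passed, and 6 of 9 had values below 0. Bsn (NM_019146) and Pclo (NM_020098), the giant scaffolds of the active zone, each had group means close together: Bsn was at 377 to 428 CPM in the sham group and 377 to 453 CPM after stimulation with a log2 fold change of 0.027 (95% interval -0.13 to 0.18), and Pclo was at 75.7 to 98.6 CPM in the sham group and 73.1 to 104 CPM after stimulation with 0.015 (95% interval -0.21 to 0.24). Rims1, which binds Rab3 and calcium channels, was at 136 to 159 CPM in the sham group and 109 to 163 CPM after stimulation, with stimulated rats 9 and 10 the lowest of the 10 and a log2 fold change of -0.089 (95% interval -0.32 to 0.14). Unc13a (Munc13-1), the main priming factor, was at 162 to 215 CPM in the sham group and 169 to 184 CPM after stimulation with -0.14 (95% interval -0.32 to 0.041), and without sham rat 5 it was -0.21 with an unadjusted p = 0.017 by edgeR. Unc13b (Munc13-2) reached 28.9 CPM in stimulated rat 9 against 11.2 to 15.2 CPM in sham rats, but the lowest of the 10 values, 10.1 CPM, was also that of a stimulated rat, and its log2 fold change was 0.42 (95% interval -0.041 to 0.89). Rims2, Rims3, Rims4 and Unc13c had log2 fold changes from -0.29 to -0.040.

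**Figure D3:**
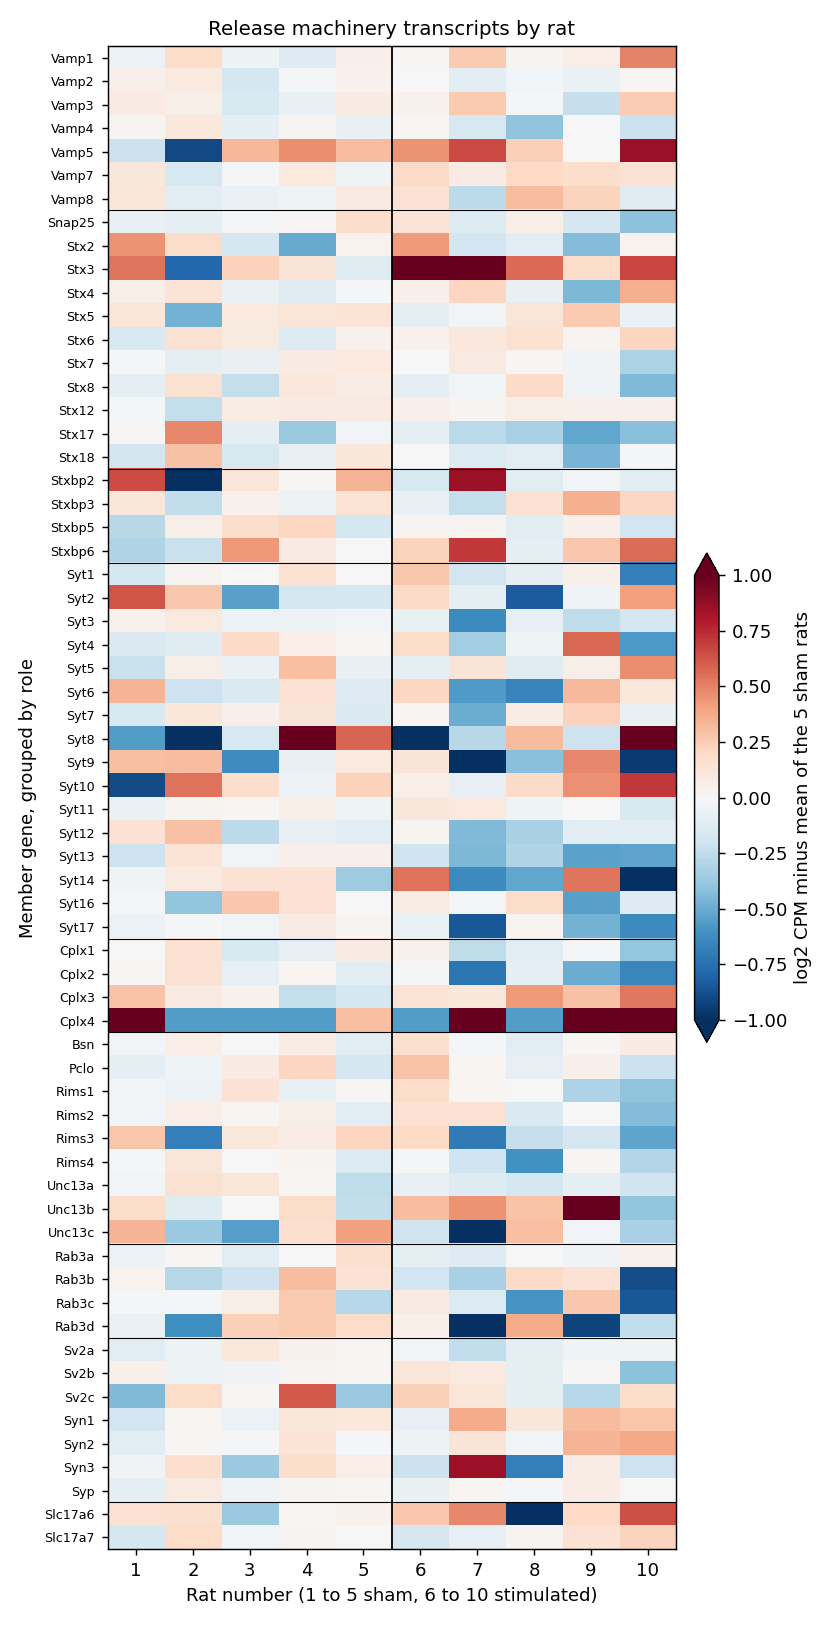
Log2 CPM of 64 members (rows, grouped by role, lines between roles) in the 10 rats (columns), minus the mean of the 5 sham rats, with colours limited to 1 above and below 0. Stimulated rats 7 and 10 have strong colours in both directions, as in Cplx2 and Syt17, the synaptophysin (Syp) row is pale throughout, and sparse members such as Syt8 and Cplx4 vary in both groups.

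The 4 Rab3 genes had log2 fold changes below 0 and none passed, from -0.34 for Rab3d to -0.045 for Rab3a. Rab3a (NM_013018), the major vesicle GTPase, was at 631 to 761 CPM in the sham group and 624 to 700.2 CPM after stimulation, with a 95% interval of -0.20 to 0.11. Among the vesicle membrane and phosphoproteins, 0 of 7 passed. Syp (NM_012664), the vesicle membrane protein used as a marker of terminals, had the highest p of the 65 members and was at 691 ± 33.3 CPM for sham and 692 ± 26.4 CPM for stimulated rats (SD, 5 rats each), with a log2 fold change of 0.0025 (95% interval -0.14 to 0.14). Sv2a (NM_057210) was at 435 to 508 CPM in the sham group and 397 to 463 CPM after stimulation with -0.089 (95% interval -0.25 to 0.067), Sv2b at 325 to 348 CPM in the sham group and 254 to 366 CPM after stimulation with -0.040 (95% interval -0.24 to 0.16), and the sparse Sv2c at 2.79 to 5.91 CPM in the sham group and 3.11 to 4.52 CPM after stimulation with -0.0093 (95% interval -0.48 to 0.46). In Sv2b the lowest of the 10 values, 254 CPM, was that of stimulated rat 10.

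Syn1 (NM_019133), the synapsin that tethers vesicles to actin, came closest to the threshold without passing it. Its level was 369, 427, 405, 457 and 454 CPM in sham rats 1 to 5 and 397, 545, 456, 524 and 509.9 CPM in stimulated rats 6 to 10. Stimulated rats 7, 9 and 10 lay above all sham rats, the reverse of their place in Cplx2. The fitted log2 difference, stimulated minus sham, was 0.20 (SE 0.0962, 95% interval -0.0031 to 0.41), with an unadjusted p = 0.053 and an adjusted p = 0.513 by edgeR's quasi-likelihood test. In the GRCr8 annotation the gene Timp1, which encodes a secreted protease inhibitor, lies within the span of Syn1. Timp1 was 2.50, 2.82, 2.29, 2.40 and 1.84 CPM in sham rats 1 to 5 and 1.49, 67.4, 1.72, 20.6 and 8.82 CPM in stimulated rats 6 to 10, likewise highest in rats 7, 9 and 10. Whether the counting used strand was not stated, and the part of Timp1 in the Syn1 values was not tested. Syn2 was at 236 to 278 CPM in the sham group and 245 to 329 CPM after stimulation, highest in stimulated rats 10 and 9, with 0.16 (95% interval -0.044 to 0.37), and Syn3 was sparse at 3.76 to 5.54 CPM in the sham group and 3.00 to 8.92 CPM after stimulation with 0.054 (95% interval -0.49 to 0.59). In all, 28 members share part of their annotated span with another gene and 11 with a coding gene.

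Slc17a7 (NM_053859), the glutamate transporter of hippocampal principal cell terminals, was at 1784 to 2286 CPM in the sham group and 1797 to 2355 CPM after stimulation, with a log2 fold change of 0.031 (95% interval -0.16 to 0.22). Slc17a6 (VGLUT2), the transporter of thalamic and other subcortical inputs, was sparse at 3.81 to 5.57 CPM in the sham group and 2.43 to 7.84 CPM after stimulation, with 0.22 (95% interval -0.32 to 0.75). Without stimulated rat 8, whose value was the lowest, the Slc17a6 log2 fold change was 0.39 with an unadjusted p = 0.040 by edgeR.

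The distance of each rat from the sham level, over the 27 members with at least 50 CPM, set the same 3 animals apart. The root mean square log2 difference from the mean of the sham rats (of the other 4 for a sham rat) was 0.108 to 0.141 in the sham rats, 0.124 and 0.0988 in stimulated rats 6 and 8, and 0.318, 0.244 and 0.361 in stimulated rats 7, 9 and 10. Rats 6 and 8 thus lay no farther from the sham mean than sham rats did. Over all 4115 tested rows at that level the same measure was 0.121 to 0.196 in the sham rats, 0.146 and 0.149 in rats 6 and 8, and 0.432, 0.306 and 0.323 in rats 7, 9 and 10, the same 3 rats. Rat 10 held the highest of the 10 values in 13 members (20.0%) and the lowest in 15 (23.1%), against 13.4% and 12.8% of all tested rows, and rat 7 the highest in 10.8% and the lowest in 18.5%, against 17.7% and 17.2%. The summed CPM of all members was 12168 in rat 10 and 11538 to 12732 in sham rats. This pattern was noticed in the data and was not tested.

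**Figure D4:**
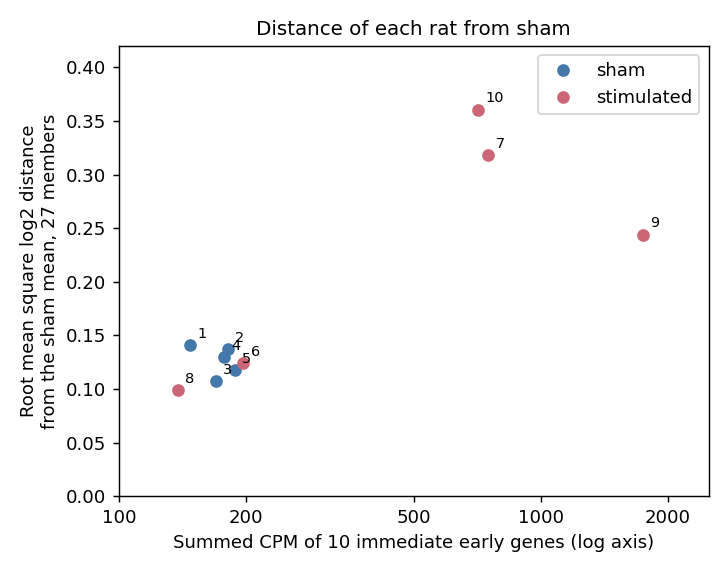
Root mean square log2 distance of each rat from the sham mean over the 27 members with at least 50 CPM (vertical axis) against the summed CPM of 10 immediate early genes (horizontal log axis), with rat numbers beside the points. Stimulated rats 7, 9 and 10 lie above 0.24 and at 710 CPM or more, and the other 7 rats lie below 0.15 and at 197 CPM or less.

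Other genes of the vesicle cycle, listed by function outside the symbol rule, were examined beside the members. Of 52 listed, 49 were tested (Erc1, Lin7a and Rab3gap1 were not). By edgeR's quasi-likelihood test, 0 had an adjusted p under 0.05, 2 were higher and 2 lower at an unadjusted p under 0.05 (4.08% each, against 6.7% and 3.16% of all tested rows), and the median log2 fold change was -0.046. Rph3a (NM_133518), the Rab3 effector rabphilin, was 123, 138, 165, 149 and 143 CPM in sham rats 1 to 5 and 146, 98.3, 113, 99.2 and 104 CPM in stimulated rats 6 to 10. Values of 4 stimulated rats lay below all sham rats, and rat 6 did not. The log2 fold change of stimulated over sham was -0.36 (SE 0.12, 95% interval -0.61 to -0.11), with an unadjusted p = 0.0088 and an adjusted p = 0.399 by edgeR's quasi-likelihood test. Sncb, or beta-synuclein, a presynaptic relative of alpha-synuclein, was 499.6, 528, 501, 526 and 579 CPM in sham rats 1 to 5 and 464, 312, 513, 481 and 378 CPM in stimulated rats 6 to 10. Rats 7 and 10 were again the lowest, and the log2 fold change was -0.29 (95% interval -0.55 to -0.039), unadjusted p = 0.027 and adjusted p = 0.446 by edgeR.

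In the other direction, Doc2b, a high-affinity calcium sensor of spontaneous release, was 28.3, 45.3, 20.2, 25.2 and 22.0 CPM in sham rats 1 to 5 and 39.6, 56.6, 34.7, 29.3 and 54.6 CPM in stimulated rats 6 to 10. The groups overlapped through sham rat 2, and the log2 fold change was 0.61 (95% interval 0.12 to 1.10), unadjusted p = 0.018 and adjusted p = 0.420 by edgeR. Rimbp2, which links Rims to calcium channels, was 207, 202, 235, 223 and 199 CPM in sham rats 1 to 5 and 222, 312, 220.3, 236 and 425 CPM in stimulated rats 6 to 10. Rats 7 and 10 were the highest, and the log2 fold change was 0.41 (95% interval 0.063 to 0.76), unadjusted p = 0.024 and adjusted p = 0.432 by edgeR. Without rat 10 it was 0.22 with an unadjusted p = 0.070. The 10 tested endocytosis genes held none at an unadjusted p under 0.05, with log2 fold changes from -0.12 to 0.16.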

How the data were processed

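Messenger RNA libraries of 10 rats (5 sham, 5 stimulated, grouped by the treatment label, 1 column per rat number) were used. The deposited values are raw read counts per transcript, which the authors made from 36-base single reads aligned to the rn4 build with BWA and counted with their own script, without normalization. The methods name an Ensembl annotation, whereas rows carry RefSeq identifiers, and the handling of strand and of reads shared by transcripts was not stated. The row of unaligned reads (32.0 to 45.1% of a library, highest in stimulated rats 8 to 10) was set aside. Of 32041 rows, the 22447 with a summed count of at least 46 (30th percentile, the study's rule) were tested by edgeR 4.0.16 quasi-likelihood (R 4.3.3, legacy deviances, TMM factors, no covariate), two-sided, with Benjamini-Hochberg adjustment over all of them. The test was checked on simulated counts. Symbols and promoter windows come from RefSeq (GRCr8) and were used for names, overlaps and sequence only. The p-values measure the spread between rats, 1 library each. Alternatives were RLE factors, library size alone, other filters, DESeq2 1.42.0, limma-voom (limma 3.58.1), the likelihood ratio test, adjusted deviances, summed rows and the omission of each rat. Described with all 10 values were members with an unadjusted p under 0.05 or with groups that do not overlap; core members were described whatever their values, as were Stx1a and other pathway genes with an unadjusted p under 0.05. Values of 2 genes are not reported here. Syt4, Syt11, Stxbp6, Unc13b and the promoter windows were chosen after values were seen. The members and lists were chosen with earlier results of these data known.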

Additional observations from a re-analysis of the deposited data

Results flagged for a closer look

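The Cplx4 level of sham rat 1 (0.291 CPM, from 5 counts) lay far from the other sham rats, which were between 0 and 0.0838 CPM. The gap was 0.712 of the group's range, just above Dixon's 95% limit of 0.71 for 5 samples. In all, 66 groups of 5 values were tested in this way, and chance alone flags about 1 in 20 of them, or 3.3.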

How the results depend on the processing

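The count of members with an adjusted p under 0.05 stayed at 0 under every alternative tried, DESeq2 and the likelihood ratio test included, which called 32 and 119 of all tested rows. Cplx2, Syt13, Stx3 and Rph3a had an unadjusted p under 0.05 in all 19 refits, Syt17 in 15, Cplx3 in 14 and Syt3 in 9. Of 626 log2 fold changes of named genes, 596 kept their sign, and the other 30 changed sign with no unadjusted p under 0.05 on either side. With library size alone as scaling, 0 members had groups that did not overlap. Leaving out 1 rat in turn gave 1 to 3 such members, 2 to 4 higher and 2 to 5 lower members at an unadjusted p under 0.05, 3 to 8 pathway genes, and a median log2 fold change of -0.070 to -0.00067. The calls over all 22447 tested rows moved too, from 1118 to 1850 higher and from 515 to 1281 lower across these omissions. Cplx4 was among the higher members each time, and its call is no support. The lower count was 2 without stimulated rat 7, 9 or 10, when Syt17 and Syt3 were lost. Lower calls over all tested rows were then 515, 638 and 673, against 709 with all rats. The 8 pathway genes appeared without stimulated rat 6, when calls over all tested rows were 1850 higher and 1281 lower, against 1505 and 709 with all rats. Groups did not overlap in 2 members without sham rat 5 or stimulated rat 7, 9 or 10 and in 3 without sham rat 1 or stimulated rat 6 or 8. The share of all tested rows without overlap was not counted for these omissions. Full separation is easier for any row when a group holds fewer rats. The cause of these changes was not tested. With symbols that carry a letter after the number added, 68 members gave the same counts. No paired analysis was possible because the 10 rats are different animals and the labels name no pairs among them.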
